A study of Mus musculus with 7 samples.

Results

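The Toll-like receptor family was read as 10 genes of the deposited table, namely Tlr1, Tlr2, Tlr3, Tlr4, Tlr5, Tlr6, Tlr7, Tlr8, Tlr9 and Tlr13. They were chosen by name, without use of their values, from 23393 gene rows. Each of the 10 names matched exactly 1 row, and all 10 were among the 15236 genes tested, those that reached 10 normalized counts in 3 or more libraries. RNA of the cardiac ventricle was sequenced from 7 untreated mice aged 3 to 6 weeks. The 4 control mice, described as unaffected, were Ctla4+/+;Pdcd1-/-. The 3 mice of the immune checkpoint inhibitor (ICI) myocarditis group were Ctla4+/-;Pdcd1-/-. All 7 mice thus lacked Pdcd1, which encodes the checkpoint receptor PD-1, and the groups differed in 1 copy of Ctla4, which encodes the checkpoint receptor CTLA-4. The inflammation was modelled by these germline genotypes and no inhibitor drug was given.

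Toll-like receptors are innate sensors that bind microbial molecules and some molecules released by damaged cells. TLR1, TLR2, TLR4, TLR5 and TLR6 act at the cell surface, while TLR3, TLR7, TLR8, TLR9 and TLR13 sense nucleic acids in endosomes. Binding recruits the adaptor MyD88, or TRIF in the case of TLR3 and both in the case of TLR4. It leads to activation of NF-kappaB and interferon regulatory factors. In the heart these receptors are known from resident and recruited macrophages, and several also from cardiomyocytes and endothelium.

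Values are normalized counts, that is read counts divided by the authors' size factor for each library, from libraries of 20931730 to 39037176 reads. Fold changes are differences of mean log2(normalized count + 1), ICI-myocarditis over control. Tests are limma's, with Benjamini-Hochberg adjustment over all 15236 genes and a threshold of 0.05. The labels give no batch, so no batch could be compared. The libraries showed strong expression of the 6 cardiomyocyte markers read (Myh6, Tnnt2, Actc1, Ryr2, Ttn and Myl2), with summed levels of 2256000 to 4509000 in controls and 1750000 to 2739000 in ICI-myocarditis. On the first principal component of all tested genes, control 2 scored 2.3, between the other controls (-96.6 to -61.1) and the ICI-myocarditis libraries (58.8 to 104.9).

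Transcripts of 9 of the 10 receptor genes were higher in ICI-myocarditis hearts, and Tlr5 was the member that did not pass the test. The largest increases were those of Tlr13, a sensor of bacterial ribosomal RNA, and Tlr9, the sensor of unmethylated CpG DNA, at 10.9-fold and 9.62-fold on the log2(normalized count + 1) scale. The smallest called increases were those of Tlr3, the sensor of double-stranded RNA, at 2.09-fold, and Tlr4, the lipopolysaccharide receptor, at 1.62-fold. Among all genes tested, 11.7% were called higher, 4.0% were called lower and 15.7% were called in either direction. For the same 9 members every ICI-myocarditis library lay above every control, a separation seen in this direction for 17.3% of all genes tested. The median log2 fold change was 2.08 over the 10 members and -0.02 over all genes tested. All 5 endosomal members were called, with a median of 2.55, as were 4 of the 5 surface members, with a median of 1.92. Leaving out ICI-myocarditis 3 reduced the number of called members to 6, and the other 15 alternatives gave 7 to 9 called members. Under limma-voom with quality weights the 9 were 8 called higher, without Tlr4, and Tlr5 called lower, where 16.4% of all genes tested were called higher. With edgeR 8 members were called higher (10.3% of all genes tested) and with DESeq2 9 (14.2%). The corresponding shares of all genes were 5.96% without ICI-myocarditis 3, 7.74% without ICI-myocarditis 2, 9.1% without ICI-myocarditis 1, 8.29% without control 1, 7.34% without control 3 and 9.11% with the replicate number as a block. The same 9 members passed the threshold in the authors' deposited table, where 12.9% of genes did so in this direction. In whole ventricle RNA, more cells of a type and more RNA per cell cannot be told apart.

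Spread within each group was shared across members. ICI-myocarditis 3 was the highest of its group for 9 members, all but Tlr3. Control 2 was the highest control for 7 members (Tlr1, Tlr2, Tlr3, Tlr6, Tlr8, Tlr9 and Tlr13), and control 1 was the lowest for 7 (Tlr1, Tlr2, Tlr4, Tlr6, Tlr7, Tlr9 and Tlr13).

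**Figure D1:**
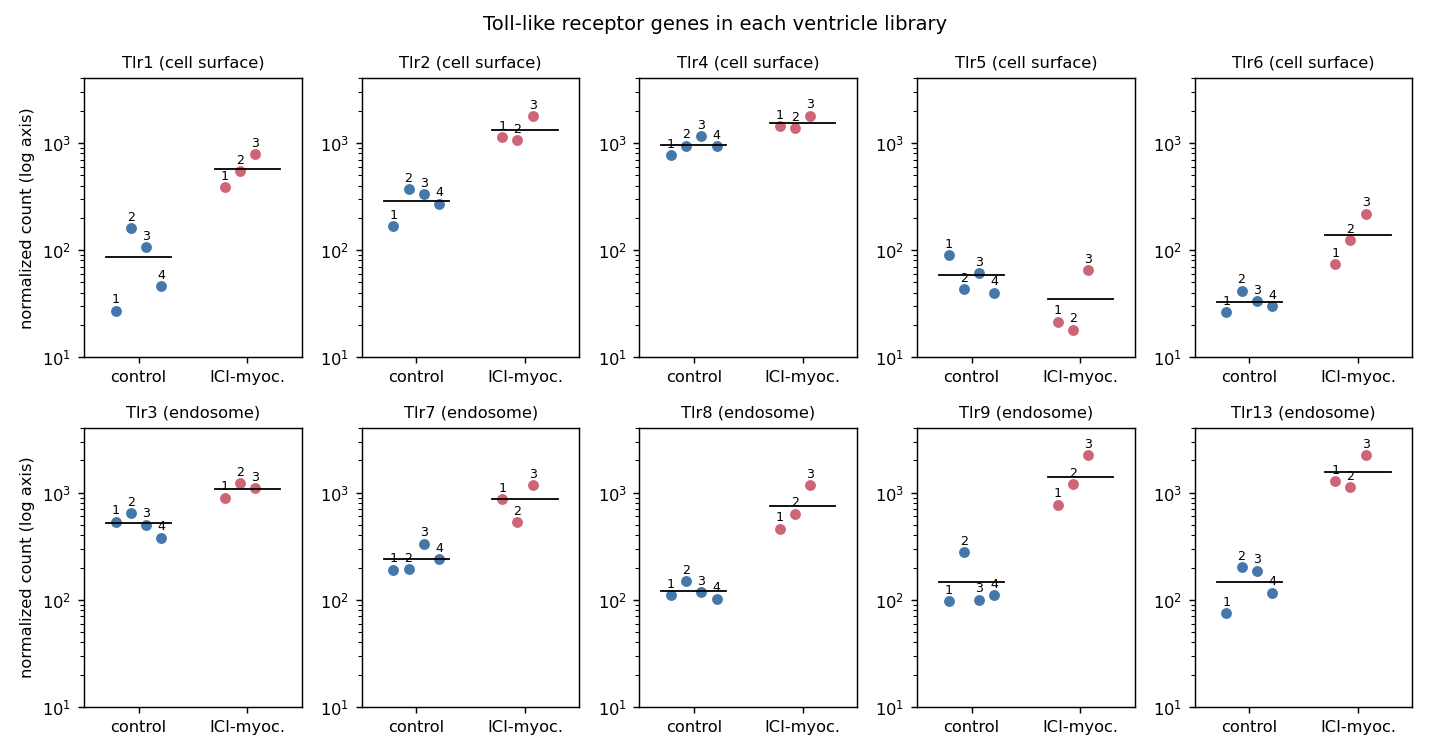
Normalized counts (log axis) of the 10 receptor genes in each library, with controls in blue and ICI-myocarditis in red; numbers are the replicate numbers and black lines the group means. The groups are apart for 9 genes, and for Tlr5 they overlap, with ICI-myocarditis 3 at 64.95 among controls of 40.04 to 89.73.

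Upstream sequence was read from RefSeq promoter windows (GRCm38.p6, 250 bases before to 50 after each start), which matched 8 members with 10 windows in all. The stretches below are those of the 3 members with the lowest p-values among these (Tlr13, Tlr8 and Tlr2), of Tlr9 and Tlr1, which rose most besides Tlr13, and of Tlr5, the member that was not called. They stop before the first annotated exon base and are written 5′ to 3′ on the strand of the gene. Capitals mark matches, on either strand, to the PU box GAGGAA, the core bound by the myeloid factor PU.1, to the AP-1 site TGANTCA, to the interferon-gamma activated site (GAS) TTCNNNGAA, to the interferon-stimulated response element (ISRE), or to the NF-kappaB consensus.
Tlr13 upstream: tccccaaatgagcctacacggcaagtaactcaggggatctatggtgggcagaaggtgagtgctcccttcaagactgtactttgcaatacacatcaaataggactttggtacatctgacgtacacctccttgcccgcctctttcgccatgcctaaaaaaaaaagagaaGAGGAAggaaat
Tlr9 upstream: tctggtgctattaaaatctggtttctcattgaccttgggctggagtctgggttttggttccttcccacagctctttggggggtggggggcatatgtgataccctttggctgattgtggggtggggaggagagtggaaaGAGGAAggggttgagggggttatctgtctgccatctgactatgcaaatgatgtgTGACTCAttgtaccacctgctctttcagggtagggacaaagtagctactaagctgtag
Tlr8 upstream: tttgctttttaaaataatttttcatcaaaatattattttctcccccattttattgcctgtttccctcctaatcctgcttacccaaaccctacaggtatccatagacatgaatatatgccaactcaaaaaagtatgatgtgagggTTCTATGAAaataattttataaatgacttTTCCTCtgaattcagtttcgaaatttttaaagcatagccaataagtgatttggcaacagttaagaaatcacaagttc
Tlr2 upstream: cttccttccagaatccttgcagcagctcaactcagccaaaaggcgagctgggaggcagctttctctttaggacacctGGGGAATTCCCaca
Tlr1 upstream: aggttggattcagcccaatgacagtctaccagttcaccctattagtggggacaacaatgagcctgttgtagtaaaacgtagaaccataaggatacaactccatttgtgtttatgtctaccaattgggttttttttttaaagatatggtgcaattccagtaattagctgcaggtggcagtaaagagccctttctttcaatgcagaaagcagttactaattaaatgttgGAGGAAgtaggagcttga
Tlr5 upstream: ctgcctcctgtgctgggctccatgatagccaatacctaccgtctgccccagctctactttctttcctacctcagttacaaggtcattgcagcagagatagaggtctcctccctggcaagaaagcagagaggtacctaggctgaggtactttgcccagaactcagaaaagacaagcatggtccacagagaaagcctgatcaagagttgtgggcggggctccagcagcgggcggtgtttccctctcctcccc
The stretches lie at chrX:106143025-106143203 (plus strand), chr9:106222348-106222597 (plus), chrX:167264330-167264579 (minus), chr3:83841768-83841858 (minus), chr5:64933564-64933808 (minus) and chr1:182954538-182954787 (plus), in the order shown. Tlr13, Tlr9, Tlr8 and Tlr1 each hold a PU box, Tlr9 also an AP-1 site and Tlr8 also a GAS. The Tlr2 stretch holds overlapping NF-kappaB matches on both strands of the run GGGGAATTCCC, and the Tlr5 stretch holds none of the 5 motifs. Over whole windows of 300 bases, a PU box was found in 4 of the 8 members and 4 of their 10 windows. It was found in 28.3% of all 32851 mouse promoter windows. GAS matches were found in 3 members (Tlr1, Tlr6 and Tlr8) and 8.3% of all windows, NF-kappaB matches in Tlr2 and Tlr3 and 4.51%, an AP-1 site in Tlr9 and 7.81%, and an ISRE in Tlr6 and 3.44%. These are matches of letters, chosen after the sequences had been read, and not measured binding.

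The largest changes were those of the endosomal receptors Tlr13 and Tlr9, while the surface receptor Tlr1 came next (log2 fold change 2.99). Tlr13 (chrX:106143204-106160493, plus strand, GRCm38) had 75.6, 201.1, 188 and 116 normalized counts in controls 1 to 4 and 1272, 1134 and 2236 in ICI-myocarditis 1 to 3. The lowest ICI-myocarditis library was 5.64 times the highest control, the widest separation in the family. Its log2 fold change was 3.44 (SE 0.38, adjusted p = 0.00251 by limma), and it held in all 16 alternatives.

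Tlr9 (chr9:106222598-106226883, plus strand) stood at 96.8, 279, 100.5 and 111 in controls 1 to 4 and at 774.5, 1198 and 2249 in ICI-myocarditis 1 to 3. Control 2 stood apart from the other 3 controls, which lay within a narrow range, and the groups did not overlap. The log2 fold change was 3.27 (SE 0.451, adjusted p = 0.00378 by limma), and 3.62 without control 2. TLR9 is known from plasmacytoid dendritic cells and B cells as well as macrophages, so markers of those cells are given with the macrophage markers further on.

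Tlr7, which encodes a sensor of single-stranded RNA, and Tlr8 are neighbours on chromosome X with 40599 bases and no other annotated gene between them. Tlr8 (chrX:167242696-167264329, minus strand) had 111, 149, 117 and 103 normalized counts in the controls and 462.5, 638.5 and 1166 in ICI-myocarditis, a fitted log2 difference of 2.55 (SE 0.319, adjusted p = 0.00317 by limma). Tlr7 (chrX:167304929-167330558, minus strand) had 192, 192, 335 and 240 in the controls and 876, 535 and 1184 in ICI-myocarditis, a fitted log2 difference of 1.81 (SE 0.312, adjusted p = 0.00677 by limma). The pair did not keep the same order among the diseased hearts, since ICI-myocarditis 2 was the lowest for Tlr7 and the middle one for Tlr8. Per kb of exon, the ratio of Tlr8 to Tlr7 ranged from 0.398 to 0.883 in controls and was 0.601, 1.36 and 1.12 in ICI-myocarditis, so that the groups overlapped. Tlr7, Tlr8 and Tlr13 are X-linked, and the Y-linked Ddx3y was between 2453 and 4698 normalized counts in all 7 libraries.

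Tlr3 (chr8:45395665-45411080, minus strand) changed least among the endosomal members. It had 536, 649, 504 and 380 normalized counts in controls and 897, 1228 and 1096 in ICI-myocarditis. The log2 fold change was 1.07 (SE 0.225, adjusted p = 0.0135 by limma). Tlr3 missed the threshold without ICI-myocarditis 2 (0.96, adjusted p = 0.0612 by limma), without ICI-myocarditis 3 (1.05, adjusted p = 0.0533) and with the replicate number as a block (0.93, adjusted p = 0.0566). Leaving out control 4, whose number no ICI-myocarditis library shares, gave the same 0.93 and passed (adjusted p = 0.0213 by limma). An antisense gene, Gm45542, shares 381 of the 5207 exon bases of Tlr3, and whether strand was used in counting is not given in the sources used here.

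Of the surface receptors, Tlr2, which binds bacterial lipoproteins, and its partners Tlr1 and Tlr6 rose together. Tlr2 (chr3:83836272-83841767, minus strand) had 168, 369, 333 and 272 normalized counts in controls and 1125, 1070 and 1789 in ICI-myocarditis. The groups were well apart, and the fitted log2 difference was 2.23 (SE 0.307, adjusted p = 0.00376 by limma).

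Tlr1 (chr5:64924679-64933563, minus strand) had the widest control range, at 27.2, 162, 107 and 46.3, and stood at 389, 547 and 791 in ICI-myocarditis. Controls differed among themselves by 5.94 times, yet the lowest ICI-myocarditis library was 2.41 times the highest control. The log2 fold change was 2.99 (SE 0.568, adjusted p = 0.00909 by limma).

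Tlr6 (chr5:64952031-64960097, minus strand) lies 18467 bases from Tlr1 with no other annotated gene between them. Its counts were low, at 26.2, 41.9, 33.5 and 30.0 in controls and 73.7, 124 and 219 in ICI-myocarditis. The groups did not overlap and the log2 fold change was 1.92 (SE 0.405, adjusted p = 0.0134 by limma), which became 1.53 and missed the threshold without ICI-myocarditis 3 (adjusted p = 0.0616 by limma). Tlr1 and Tlr6 share sequence, with 10.3% of the 75-base stretches of Tlr1 transcripts also present in Tlr6 transcripts. Reads from such stretches could be assigned to either gene or to neither, so both levels carry that uncertainty. No other pair among the 45 pairs of members shared a stretch of that length.

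Tlr4 (chr4:66827584-66930284, plus strand), which signals lipopolysaccharide, had the highest control counts of the family, at 764, 946, 1166 and 937. The ICI-myocarditis libraries were at 1441, 1373 and 1800, all above the controls but by a narrow margin. The log2 fold change was 0.70 (SE 0.202, adjusted p = 0.0467 by limma). That call held in 3 of 16 alternatives (adjusted p from 0.0163 to 0.188 by limma, edgeR or DESeq2). It was lost on leaving out any 1 of the 7 libraries, with log2 fold changes of 0.58 (without ICI-myocarditis 3) to 0.80 (without control 3), and with a replicate block (0.69, adjusted p = 0.151 by limma).

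Tlr5 (chr1:182954788-182976044, plus strand), the flagellin receptor, had 89.7, 43.2, 61.4 and 40.0 normalized counts in controls and 21.5, 18.1 and 64.95 in ICI-myocarditis. ICI-myocarditis 1 and 2 were below all controls, while ICI-myocarditis 3 lay above 3 of them. The log2 fold change was -0.89 (SE 0.505, adjusted p = 0.274 by limma), and its size rested on single libraries, at -1.45 without ICI-myocarditis 3 (adjusted p = 0.102 by limma) and -0.56 without ICI-myocarditis 2 (adjusted p = 0.597 by limma). The fit with quality weights for each library gave -1.51 and passed the threshold (adjusted p = 0.0145 by limma-voom).

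**Figure D2:**
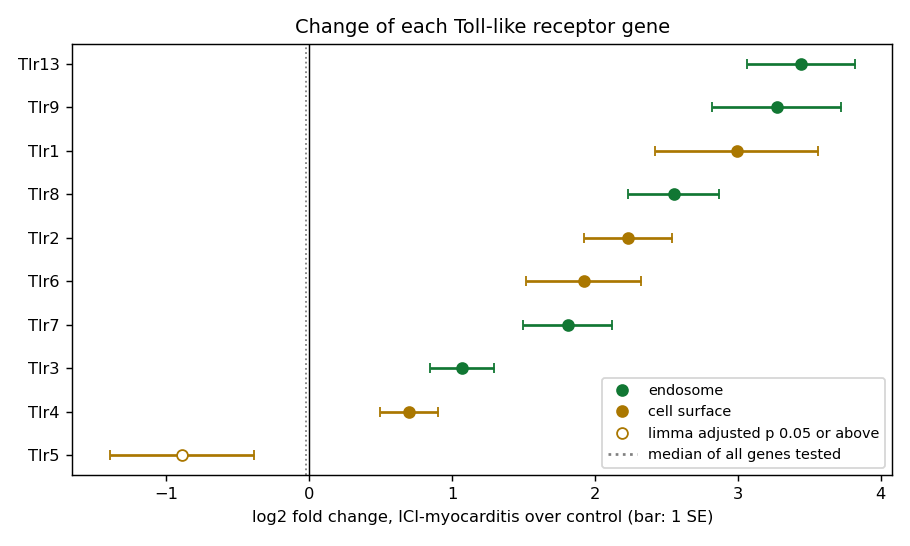
Log2 fold change, ICI-myocarditis over control, of each receptor gene with 1 SE, with endosomal genes in green and surface genes in ochre; the open circle missed limma's threshold and the dotted line is the median of all genes tested. Estimates run from -0.89 for Tlr5 to 3.44 for Tlr13.

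The order of the receptors differed between the groups when levels were set per kb of annotated exon (GENCODE M21). In controls Tlr4 was highest, at 172 ± 29.6 normalized counts per kb (SD, n = 4), and above Tlr3 in all 4 libraries with no overlap. Tlr3 (99.3 ± 21.2 per kb) and Tlr2 (94.7 ± 29.1 per kb) followed and overlapped, then Tlr7 (58.7 ± 16.5 per kb), Tlr9 (42.2 ± 25.4 per kb), Tlr13 (33.7 ± 13.8 per kb), Tlr8 (33.5 ± 5.69 per kb), Tlr1 (25.6 ± 18.3 per kb), Tlr5 (12.2 ± 4.76 per kb) and Tlr6 (8.83 ± 1.80 per kb). Each of these neighbours after Tlr3 overlapped the next in range.

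In ICI-myocarditis Tlr2 had the highest mean, at 441 ± 133 normalized counts per kb (SD, n = 3), but was above Tlr9 in 2 of 3 libraries. In ICI-myocarditis 3 Tlr9 made up 20.1% of the summed family level per kb and Tlr2 18.4%. Next by mean came Tlr9 (405 ± 218 per kb), Tlr13 (360 ± 140 per kb) and Tlr4 (277 ± 41.3 per kb). Tlr7, Tlr8, Tlr3 and Tlr1 lay at 212 ± 79.6, 211 ± 102, 206 ± 31.9 and 172 ± 60.5 per kb. Each of these genes overlapped the next in the order, whereas Tlr6 (37.2 ± 19.7 per kb) and Tlr5 (7.28 ± 5.45 per kb) were each below the gene before them in all 3 libraries. Per kb, the ratio of Tlr2 to Tlr4 was 0.406 to 0.719 in controls and 1.44 to 1.83 in ICI-myocarditis. The ratio of Tlr9 to Tlr4 moved from 0.138 to 0.471 in controls to 0.859 to 2.00, and neither ratio overlapped between groups. The endosomal genes made up 43.2% to 49.9% of the summed family level per kb in controls and 57.2% to 61.9% in ICI-myocarditis. Among them, Tlr3 fell (14.4% to 22.7% in controls, 6.54% to 12.1% in ICI-myocarditis) and Tlr7 overlapped between groups.

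**Figure D3:**
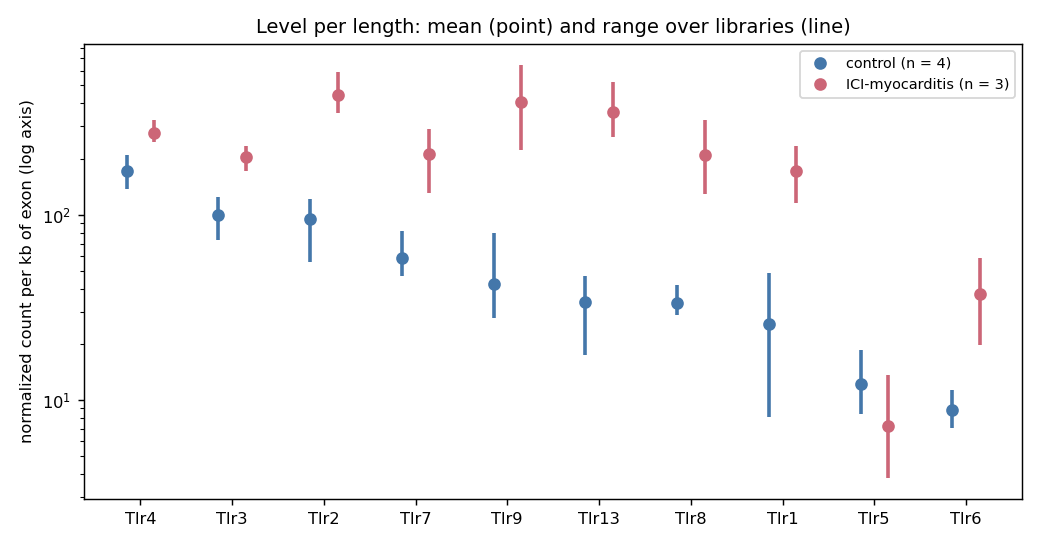
Normalized counts per kb of exon (log axis) for each receptor gene, ordered by the control mean; points are group means and lines the range over libraries. Tlr4 has the highest control mean, 172 per kb, and is highest in all 4 controls; Tlr2 has the highest ICI-myocarditis mean, 441 per kb, and is above Tlr9 in 2 of 3 libraries.

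Markers of the cells known to carry these receptors moved as well. Of 12 macrophage and monocyte markers, 11 were called higher, and their summed level rose from between 14220 and 19700 normalized counts in controls to between 58200 and 91530 in ICI-myocarditis. Control 2 and ICI-myocarditis 3, which were highest for most receptors, were also the highest of their groups in this sum. None of the 12 markers was at 0. For this and the marker lists below, the comparison is all genes tested, of which 11.7% were called higher and 4.0% lower.

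Set against that sum, the receptors divided. Tlr13 stood at 5.32, 10.2, 10.7 and 6.43 counts per 1000 marker counts in controls and 20.9, 19.5 and 24.4 in ICI-myocarditis, so that the groups did not overlap. Tlr9 reached 12.7 to 24.6 per 1000 in ICI-myocarditis, against 5.71 to 6.81 in 3 controls and 14.2 in control 2. Tlr2, Tlr6, Tlr7, Tlr8 and Tlr1 overlapped between groups on this scale, with ratios of group means from 0.877 (Tlr7) to 1.74 (Tlr1).

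By contrast, Tlr4 was lower relative to the markers in all 3 ICI-myocarditis hearts, at 19.7 to 23.7 per 1000 against 48.0 to 66.2 in controls, and Tlr5 was at 0.311 to 0.710 against 2.19 to 6.31. Tlr3 stood at 15.9 ± 4.67 per 1000 (SD, n = 3) against 30.1 ± 7.09 (SD, n = 4), and the highest ICI-myocarditis heart, at 21.1, only just passed the lowest control. Without Lyz2, which supplied 29.4% of the marker sum, Tlr3 did not overlap (14.7 to 28.1 against 40.1 to 53.5), and Tlr13 and Tlr4 kept their directions. The part of macrophage and monocyte content in the receptor increases was not tested.

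**Figure D4:**
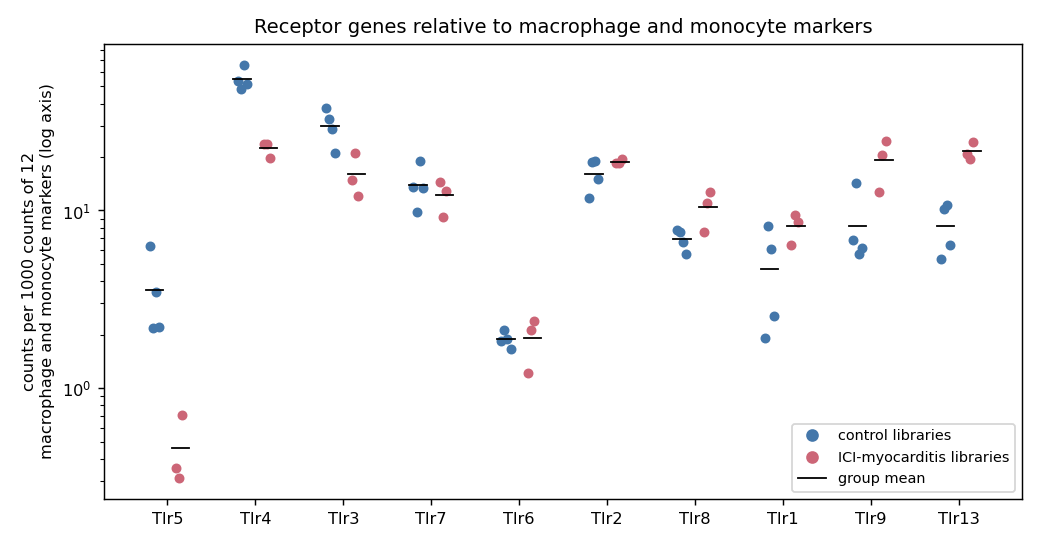
Each receptor gene per 1000 summed normalized counts of 12 macrophage and monocyte markers (log axis), by library, with black lines for group means and genes ordered by the ratio of the means. Tlr5 and Tlr4 lie lower in all ICI-myocarditis libraries, Tlr13 higher, and the other 7 overlap or touch.

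Markers of other cell types moved as well, in both directions. All 5 T cell markers tested were called higher, with a median log2 fold change of 5.17 against 2.57 for the macrophage and monocyte markers, and a summed level of 46.3 to 771 in controls and 3332 to 5045 in ICI-myocarditis. The ratio of group means of the sums was 16.3 for T cells, 4.12 for B cells and 4.03 for macrophages and monocytes. For B cells, 3 of 6 tested markers were called higher (sum 69.6 to 157 and 295 to 615), of which Cd22 made up 51.2%. For neutrophils, 1 of 3 tested markers was called, Csf3r, which made up 81.2% of the sum (62.5 to 224.5 and 336 to 895.5), and Elane and Mpo were at 0 in 5 and 3 libraries. The plasmacytoid dendritic cell list summed to 22740 to 44200 and 14200 to 20790, but 70.6% of it was Cox6a2, a muscle gene. Of its 5 tested markers 1 was called, Pacsin1, which rose from 27.8 ± 12.3 (SD, n = 4) to 230.5 ± 124 (SD, n = 3), with a log2 fold change of 2.95 (adjusted p = 0.00476 by limma). The defining Siglech lay at 2.50 to 22.2 and 7.97 to 23.5. The tested markers not called were Siglech (1.30), Ccr9 (0.39), Tcf4 (-0.78) and Cox6a2 (-0.99), all with overlapping groups.

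Conventional dendritic cell markers were called higher in 2 of 5 cases and lower in 0, while their sum, of which Zbtb46 made up 48.4%, overlapped between groups (683 to 2217 and 1586 to 2266). Xcr1, a chemokine receptor gene of cross-presenting dendritic cells, had 13.1 to 72.8 normalized counts in controls and 276 to 501 in ICI-myocarditis (3.90, SE 0.556, adjusted p = 0.00394 by limma). Flt3, a growth factor receptor gene of dendritic cells, rose by 3.82 (adjusted p = 0.0224 by limma). That call was lost with edgeR (2.95) and without control 1 (3.88), control 3 (3.59), ICI-myocarditis 2 (3.95) or ICI-myocarditis 3 (3.47). The other markers of this list, Clec9a (1.09), Cd209a (0.23) and Zbtb46 (-0.47), overlapped between groups and were not called. Mural cell markers were called lower in 3 of 4 cases (sum 29650 to 35460 and 12930 to 14590) and mast cell markers in 2 of 4 (sum 144 to 165 and 39.1 to 114), with 0 called higher in either list. Endothelial markers were called lower in 3 of 6 cases and higher in 0 (sum 26740 to 66540 and 17300 to 24980). All 6 had log2 fold changes below 0, from -1.65 to -0.74. Of 5 fibroblast markers, 0 were called either way. The part of these cells in the receptor changes was not tested.

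Accessory proteins that let the receptors work gave a mixed result. Of 21 genes for coreceptors, chaperones and endolysosomal partners, 20 were tested, 7 were called higher and 1 lower, with a median log2 fold change of 0.47. For this and each pathway list below, the comparison is all genes tested, of which 11.7% were called higher and 4.0% lower. Unc93b1, whose product carries endosomal receptors out of the endoplasmic reticulum, had 1001, 1366, 867 and 637 normalized counts in controls and 3021, 4309 and 6795 in ICI-myocarditis (fitted log2 difference 2.26, SE 0.327, adjusted p = 0.00407 by limma). Its groups were well apart. Ctss, a protease that can process endosomal receptors, rose from 1019 ± 607 to 18410 ± 5671 (4.29, adjusted p = 0.00251 by limma), and Pld4, a nuclease that degrades receptor ligands, rose by 3.05 (adjusted p = 0.00251 by limma). Pld4 was picked after its values were seen.

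The lipopolysaccharide partners of TLR4 were not called. Cd14 was at 220, 159, 253.5 and 256.5 in controls and 216, 203 and 284 in ICI-myocarditis (fitted log2 difference 0.09, SE 0.253, adjusted p = 0.86 by limma), and its sign turned in 3 of 16 alternatives. Ly96, which encodes MD-2, was at 53.7 ± 8.59 and 70.4 ± 14.8 (0.38, adjusted p = 0.459 by limma). Cd180 and Ly86, which encode a TLR4-like receptor and its MD-2-like partner, both rose. Cd180 was at 31.3, 318, 119.5 and 41.3 in controls and 816, 1153 and 2136 in ICI-myocarditis (3.89, SE 0.728, adjusted p = 0.00872 by limma), and Ly86 rose from 212 ± 93.5 to 1752 ± 444.5 (3.11, adjusted p = 0.00251 by limma). The 1 member called lower was Cd36, a fatty acid transporter of muscle and endothelium that also serves TLR2 (-1.32, adjusted p = 0.0291 by limma), a call held in 11 of 16 alternatives. It was lost with the replicate block (-1.22) and without control 3 (-1.23), control 4 (-1.22), ICI-myocarditis 2 (-1.32) or ICI-myocarditis 3 (-1.06).

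Genes for molecules of the host that can engage the receptors were called higher in 4 of 11 tested cases and lower in 0, with a median of 0.51. Over all genes tested the shares were 11.7% and 4.0%. The log2 fold change was above 0 for 7 of the 11. Hspd1 was lower in ICI-myocarditis without overlap, but just missed the threshold (-1.06, adjusted p = 0.0502 by limma). Hmgb1 (-0.24), S100a8 (-0.20) and S100a9 (-0.62) were below 0 and not called. Tnc, which encodes the matrix protein tenascin-C, rose from 267 ± 237 to 7751 ± 2721 normalized counts (5.15, adjusted p = 0.00251 by limma), Fn1 by 1.96 (adjusted p = 0.0131 by limma) and Saa3 by 3.79 (adjusted p = 0.0244 by limma). Saa3 was at 3.35 or below in 3 controls and at 27.1 in control 2. Its call was lost with edgeR (3.24) and without control 1 (3.36), control 3 (3.74) or ICI-myocarditis 3 (3.21).

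Signal transducers were called in a smaller share of cases than the receptors, a difference that was not tested. Of 26 adaptor and kinase genes, 6 were called higher and 0 lower, with a median of 0.38. The shares over all genes tested were 11.7% and 4.0%. Myd88 had 474, 623, 439 and 494 normalized counts in controls and 1273, 1082 and 1484 in ICI-myocarditis (1.33, SE 0.20, adjusted p = 0.00424 by limma). Its groups did not overlap. Ticam1, which encodes TRIF, overlapped between groups, at 424 to 784 and 695 to 776 (0.37, SE 0.228, adjusted p = 0.321 by limma). Ticam2, the bridging adaptor of TLR4, rose by 1.33 (adjusted p = 0.00836 by limma) and was picked after its values were seen. Tirap, the sorting adaptor of TLR2 and TLR4, gave 0.36 (adjusted p = 0.28 by limma).

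Irak4, the first kinase recruited by MyD88, gave 0.90 (adjusted p = 0.0531 by limma), with groups that did not overlap, and it passed in 3 of 16 alternatives (without control 2, with DESeq2 and with limma-voom). The largest called increases of this list were those of Pik3ap1 (2.97, adjusted p = 0.00438 by limma), Ikbke (2.77, adjusted p = 0.0176 by limma) and Btk (2.39, adjusted p = 0.00659 by limma). Pik3ap1 encodes a phosphoinositide 3-kinase adaptor, Ikbke an interferon-inducing kinase and Btk a kinase of B cells and myeloid cells. Ikbke missed the threshold without control 1 (2.60), control 3 (2.78) or ICI-myocarditis 3 (2.45).

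Among 12 transcription factors of the pathway, 5 were called higher and 0 lower, with a median of 1.19. Over all genes tested the shares were 11.7% and 4.0%. When any 1 ICI-myocarditis library was left out, 3 of these factors were called. Over all genes tested, 9.1%, 7.74% and 5.96% were called higher without ICI-myocarditis 1, 2 and 3. Irf5, which acts downstream of MyD88, had 231, 486, 237 and 120 normalized counts in controls and 1533, 1415 and 2872 in ICI-myocarditis (2.95, SE 0.439, adjusted p = 0.00424 by limma). Irf7, the interferon-inducible partner of TLR7 and TLR9 signalling, rose from 1393 ± 1039 to 6673 ± 1500 (2.47, adjusted p = 0.00698 by limma), and Irf8 rose by 3.04 (adjusted p = 0.00506 by limma). Irf3, the factor used by TRIF, was at 811 ± 216 and 763 ± 58.0 (-0.06, SE 0.221, adjusted p = 0.896 by limma), with a sign that turned in 3 of 16 alternatives.

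Inhibitors of the pathway were called higher in 6 of 15 cases and lower in 0, with a median of 0.47. Over all genes tested the shares were 11.7% and 4.0%. The number of called inhibitors was 3 without control 1, without control 3, without ICI-myocarditis 2 or without ICI-myocarditis 3. The shares of all genes tested called higher were then 8.29%, 7.34%, 7.74% and 5.96%, in that order. Socs1 rose from 71.6 ± 76.3 to 1218 ± 234 (4.55, adjusted p = 0.00366 by limma). Tnip3 rose by 2.16 and Tnfaip3, which encodes the ubiquitin-editing enzyme A20, rose by 2.10 (adjusted p = 0.00831 and 0.00869 by limma). The inhibitors closest to the receptors were not called. Irak3 gave 0.47, Tollip -0.38 and Sigirr -0.18 (adjusted p = 0.36, 0.243 and 0.755 by limma).

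Cytokines and enzymes induced by the receptors, most of which other pathways induce too, were called higher in 14 of 17 tested cases and lower in 0, with a median of 3.94. Over all genes tested the shares were 11.7% and 4.0%. Tnf was at 6.05, 82.7, 23.4 and 7.51 in controls and 150, 240 and 648 in ICI-myocarditis (3.94, SE 0.854, adjusted p = 0.0152 by limma), and missed the threshold without ICI-myocarditis 3 (3.35, adjusted p = 0.0683 by limma). The largest increases were those of the chemokines Ccl4 (6.74, adjusted p = 0.00414 by limma) and Ccl5 (6.03, adjusted p = 0.00506 by limma) and of Irg1 (6.34, adjusted p = 0.00961 by limma), which encodes the itaconate-forming enzyme of macrophages. The 6 genes below the filter included Il6, at 0 to 3.35 in controls and 6.14 to 19.9 in ICI-myocarditis. Ifnb1, the interferon-beta gene, was at 0 in 4 libraries and at most 1.45 in the other 3.

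**Figure D5:**
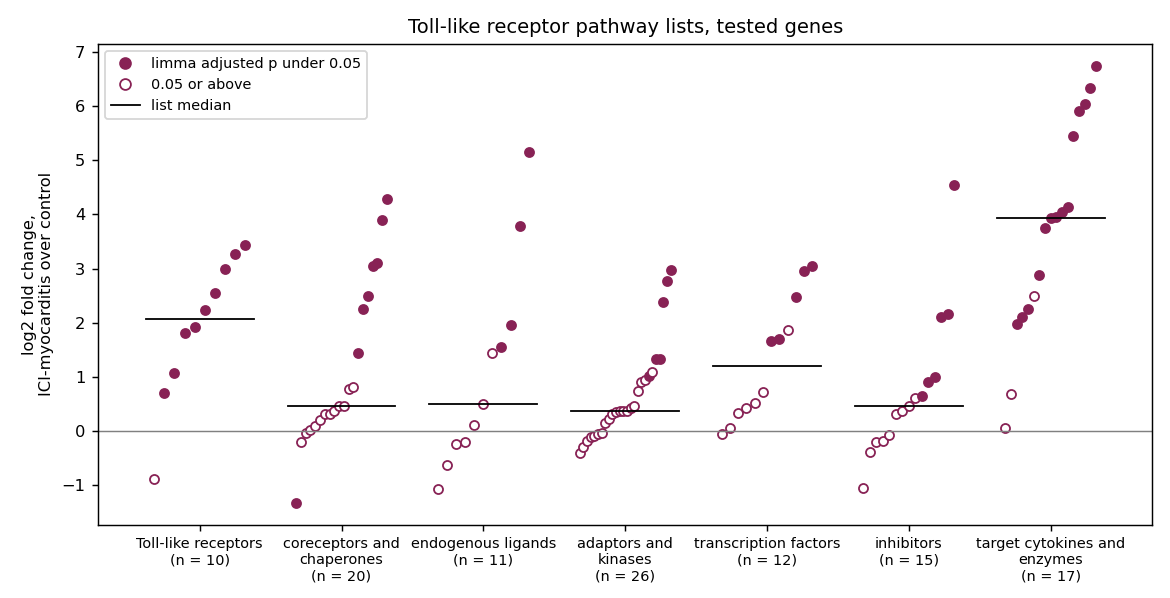
Log2 fold change, ICI-myocarditis over control, of each tested gene in the receptor family and in 6 pathway lists; filled circles passed limma's threshold, open circles did not, and black lines are list medians. The medians run from 0.38 for adaptors and kinases to 3.94 for target cytokines and enzymes.

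Genes with the most similar course over the 7 libraries were found by the root mean square difference between log2 profiles, each centred on its own mean, over 14046 genes. Tlr9 was nearest to Csf2rb and Csf2rb2 (0.0751 and 0.192), which encode the beta chains of the receptors for GM-CSF and related cytokines and are near-identical copies. Tlr13 was nearest to Fcgr1, a macrophage Fc receptor gene (0.146), and C4b (0.248). Tlr8 was nearest to Cd44 and Fcgr2b (0.123 and 0.138), Tlr7 to Sema3e and Pdgfc (0.221 and 0.235), and Tlr3 to Eif2ak2, the gene of the double-stranded RNA kinase PKR, and Pkmyt1 (0.125 and 0.128).

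Among surface receptors, Tlr4 was nearest to Mrc1, the mannose receptor gene of resident macrophages, and Slc26a2 (0.079 and 0.1). Tlr5 was nearest to Lyve1, a marker of lymphatic endothelium and resident macrophages, and Pax6 (0.272 and 0.282). Tlr2 was nearest to Ctsc and Slc1a3 (0.16 and 0.162), Tlr1 to Ptpn6 and Lpxn (0.3 and 0.301), and Tlr6 to Sirpa and Cx3cl1 (0.172 and 0.18). These distances describe the libraries, which share the group difference, and carry no test.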

How the data were processed

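RNA of 7 ventricles was sequenced from stranded total RNA libraries, per the labels. STAR 2.7.3 and the builds GRCm38 and mm10 are named in the submitters' processing notes; counter, annotation and use of strand are not given in the sources used here. The deposited library columns are a signal, namely counts of reads after division by a size factor, and the deposited table also holds the authors' log2 fold changes, a test score and p-values, which were not used for calls. Multiples of each column's step were whole (within 0.01) for 100% of values, so reads were recovered for edgeR, DESeq2 and limma-voom; for control 1 the step, 1.008, is too near 1 for whole numbers to be strong evidence. Of 23420 rows, 27 with names turned into dates (0.143% of reads) were left out. Precision is limited by spread between animals except for low genes, and duplicates could not be recognised by molecular identifiers.

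limma 3.58.1 (R 4.3.3) was run on log2(normalized count + 1) with trend and robust variance, without covariates, on genes that reached 10 normalized counts in 3 or more libraries. It was tested on simulated data, as were limma-voom, edgeR 4.0.16 and DESeq2 1.42.0. All made a larger share of wrong calls there than the threshold allows, DESeq2 the largest, and the limit set for passing this test was relaxed after that was seen. Alternatives were pseudocounts of 4 and 0.25, no filter, scaling by total reads, edgeR, DESeq2, limma-voom with quality weights, limma without trend and robust options, a replicate block, and leaving out each library. Named genes are the 10 members, the 3 called genes of each pathway list with the largest increase and decrease, a short list of core pathway genes and the 2 nearest profiles of each member; other genes were picked after their values were seen, as were the marker genes given singly. Adgre1 and Otulin were read under the older symbols Emr1 and Fam105b. Members, lists and tests were chosen with earlier results of these data known. The macrophage denominator, the ratio pairs, the motifs (revised once after a first search) and the printed promoters were chosen after values or sequences had been seen. Promoter windows of Tlr4 and Tlr7 were not used here.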

Additional observations from a re-analysis of the deposited data

Results flagged for a closer look

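Of 49 genes examined, 4 had 1 control library far from the other 3, where chance flags about 1 in 20 groups of values. In each case it was control 2, on the high side. The gap to the next library was 0.868 of the control range of log2 values for Tlr9, 0.877 for Tlr12, 0.922 for Irf7 and 0.939 for Irg1.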

How the results depend on the processing

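Tlr1, Tlr2, Tlr7, Tlr8, Tlr9 and Tlr13 kept their direction and stayed past the threshold in all 16 alternatives, and the number of members called in either direction ranged from 6 to 9. Tlr4 missed the threshold without the filter (0.70), with scaling by total reads (0.86), edgeR (0.68), limma-voom (0.48), limma without trend and robust options (0.70), the replicate block (0.69) and on leaving out each library (0.58 to 0.80). Tlr3 missed it with the replicate block (0.93) and without ICI-myocarditis 2 or 3 (leave-one-out range 0.93 to 1.19), and Tlr6 without ICI-myocarditis 3 (leave-one-out range 1.53 to 2.31). Tlr5 passed with limma-voom (-1.51) and ranged from -1.45 to -0.56 on leaving out 1 library. The number of genes called over all genes was 2392, 4034 with limma-voom and 1072 (without ICI-myocarditis 3) to 3339 (without control 2) on leaving out 1 library. Leaving out 1 library gave 3 to 6 called transcription factors and 3 to 5 called inhibitors. The sign of genes that were not called turned for Cd14 with limma-voom (-0.17) and on leaving out 1 library (-0.07 to 0.18), for Irf3 with scaling by total reads (0.10), limma-voom (0.03) and leave-one-out (-0.14 to 0.11), and for Sigirr in leave-one-out (-0.40 to 0.08). The causes of these differences between settings were not tested. Scaling by total reads moved the median of all genes by 0.16. Deviations of same-numbered libraries from their group means gave correlations of -0.271, -0.206 and -0.078, and other pairs gave -0.477 to 0.451. So few pairs cannot show whether the number marks a shared origin. The replicate block gave 1777 calls over all genes. No ICI-myocarditis library shares the number of control 4, so the block fit gave the same fold changes as leaving out control 4. Over 49 genes and 16 alternatives, 730 values kept direction and side of the threshold, 43 lost the call, 4 gained one and 7 turned sign. For genes of few reads, such as Tlr6 and Tlr5, depth adds to the spread.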

Other observations

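Tlr11 and Tlr12, which sense profilin of protozoa, are further receptor genes of the mouse outside the 10 members and were read after their values had been seen. Tlr12 had 7.06, 92.5, 8.93 and 6.26 normalized counts in controls 1 to 4 and 295, 450 and 827 in ICI-myocarditis 1 to 3 (fitted log2 difference 4.97, SE 0.85, adjusted p = 0.00658 by limma). Control 2 stood far above the other controls, and the groups did not overlap. Tlr11 had 3.02, 70.3, 8.93 and 0 in controls and 140, 133 and 334 in ICI-myocarditis (4.66, SE 1.20, adjusted p = 0.0297 by limma), a call held in 8 of 16 alternatives. It was lost with edgeR (3.26), with DESeq2 (3.29), with a pseudocount of 0.25 (5.26), without control 1 (4.37), without control 3 (4.81) and without ICI-myocarditis 1, 2 or 3 (4.86, 4.90 and 4.23).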
